A study of Ovis aries with 6 samples.

Results

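Pre-mRNA splicing is directed by RNA-binding proteins that mark exons and introns for the spliceosome, and the genes of 7 such families were followed here in sheep muscle. They were taken from the gene table by symbol, as SR proteins (SRSF), heterogeneous nuclear ribonucleoproteins (HNRNP), subunits of splicing factor 3 (SF3A and SF3B), numbered RNA-binding motif genes (RBM), and the RBFOX, MBNL and CELF genes. The rule found 80 of the 23144 genes listed. The libraries were made from longissimus dorsi muscle of 1-year-old females, 3 Small Tail Han (STH) sheep and 3 Qianhua Mutton Merino (QHMM) sheep kept under the same conditions, untreated and with a library for each animal. Poly(A)-containing RNA was read on an Ion Proton instrument. Gene counts summed to 10982191 to 14334544 per library.

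SR proteins bind exonic enhancers through RNA recognition motifs and draw the spliceosome to the exon through arginine- and serine-rich tails, whereas many hnRNPs bind introns and exons to hold splicing back. SF3A and SF3B belong to the U2 small nuclear ribonucleoprotein, which settles on the branch point of the intron. RBFOX, MBNL and CELF proteins are best known in striated muscle, where the balance between MBNL and CELF proteins shifts many exons from the fetal to the adult form, and loss of free MBNL protein underlies the mis-splicing of myotonic dystrophy. Exon use was not measured here, since the counts are per gene.

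None of the members passed the test between the breeds, and most values lay slightly higher in STH. Of the 80 members, 75 had at least 1 read and 68 passed the filter for low counts and were tested with edgeR's quasi-likelihood F test on TMM-normalized counts over all 12506 tested genes. A gene was called when its FDR was below 0.05 and its fold change above 1.5. With edgeR, 0 of the 68 members were called, against 3.45% of all tested genes, and DESeq2 and limma-trend on RPKM also called 0. The FDRs of the members ran from 0.111 to 0.994. At an unadjusted p below 0.05 there were 7 members higher in STH and 0 lower (10.3% and 0% of the 68), where 9.43% and 9.72% of all tested genes lay on these sides. The 7 were HNRNPU, HNRNPR, SF3A2, RBM28, RBM19, RBM38 and RBM34.

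The log2 of the STH vs. QHMM fold change (log2FC) was above 0 in 55 of the 68 members and in 51.8% of all tested genes. Its median was 0.22 over the members and 0.02 over all tested genes, and the values ran from -0.56 to 1.38. In size, 8 members (11.8%) exceeded 1.5-fold, against 26.7% of all tested genes. The median SE was also smaller over the members, 0.251 against 0.296 over all tested genes, and its part in these shares was not tested. The 3 STH libraries lay above the 3 QHMM libraries in 10 members (14.7%, with 13.0% of all tested genes) and below them in 2 (2.94%, with 11.7%). This separation depended on the scaling of the libraries. On RPKM, which is scaled by library totals and not by TMM, the STH libraries lay above in 12 members (17.6%, with 15.4% of all genes) and below in 0 (with 7.82%), and 5 members, HNRNPU, HNRNPR, RBM28, RBM33 and SF3A2, were apart on both scales. The 95% interval of the fold change stayed within 2-fold either way in 53 of the 68 members and within 1.5-fold in 10, so smaller differences could not be told from none in most of them.

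**Figure D1:**
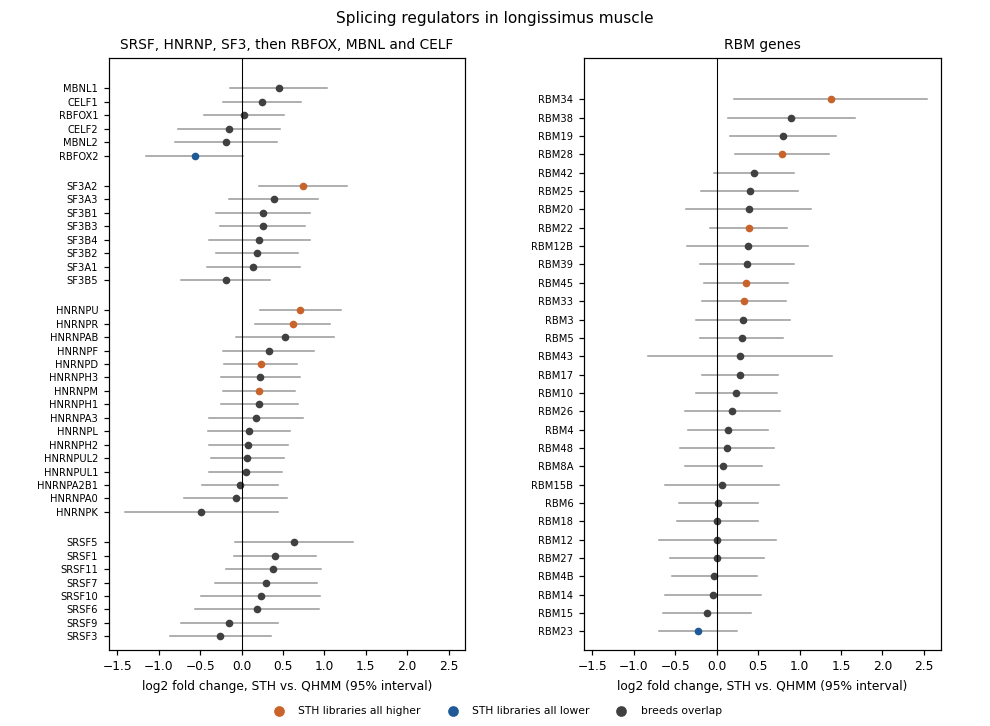
Each point gives the log2FC of a tested member in STH vs. QHMM and each line its 95% interval, with orange for members whose STH libraries all lay above QHMM, blue for those all below and dark grey for overlap. Most of the 68 points sit a little to the right of 0, with RBM34 farthest right at 1.38 and RBFOX2 farthest left at -0.56.

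The libraries of a breed differed among themselves in these genes. In each library the deviation of every tested member from its own 6-library mean was taken on the log2 scale. The median deviation was -0.01, -0.16 and -0.10 for replicates 1, 2 and 3 of QHMM and 0.03, 0.29 and -0.03 for those of STH, while the same median over all tested genes lay between -0.02 and 0.02. STH replicate 2 therefore stood highest. It held the top value in 31 of the 68 members (45.6%), against 22.8% of all tested genes, and QHMM replicate 2 held the lowest value in 26 (38.2%, with 18.1% of all tested genes). Without STH replicate 2 the median log2FC of the members was 0.12, with 46 of 68 above 0. The second principal component set QHMM replicate 2 and STH replicate 3 apart, and leaving both out gave a median of 0.24 and 0 called members.

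**Figure D2:**
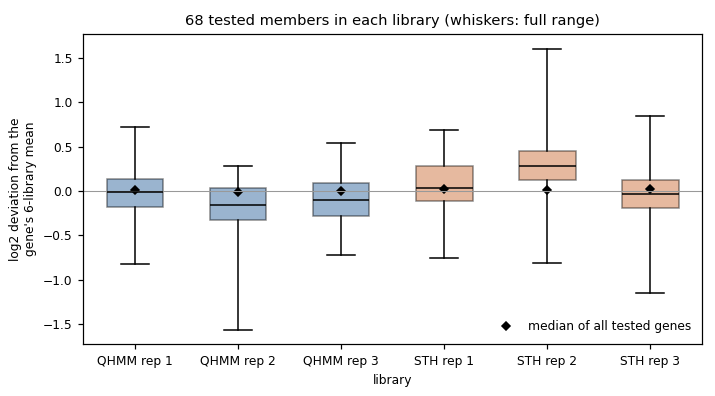
Boxes show, for each library, the log2 deviation of the 68 tested members from the mean of each gene over 6 libraries, with the median as a line, the quartiles as box edges and the full range as whiskers, and diamonds mark the median of all tested genes. The box of STH replicate 2 is centred at 0.29 and that of QHMM replicate 2 at -0.16, while the diamonds stay near 0.

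Most markers of muscle fibres that were found were abundant in all libraries. The fast-fibre gene TNNT3 had 0 counts in each, and the slow-fibre gene MYH7B lay between 1.49 and 23.4 RPKM. TNNI1, MYH1 and MYH2 were not found under these symbols. The summed normalized counts of 6 slow-fibre genes were 126530 to 168840 in the QHMM animals and 49604 to 73731 in the STH animals, and 2 of the 6 were called lower. Those of 5 fast-fibre genes, TNNT3 included, were 608219 to 824786 and 419186 to 780396, with overlap and 0 called. For 5 adipocyte genes the sums were 1480 to 4948 and 664 to 1025, with 4 called lower, and for 4 fibroblast genes 10907 to 17697 and 4728 to 9715, with 0 called. Of the fibroblast genes only COL1A1 was apart, with means of 8765 and 3570, and the breeds overlapped in DCN, PDGFRA and LUM. The sums of 4 satellite-cell genes were 161 to 221 and 278 to 337, with CDH15 called higher (means 122 and 266). The other satellite-cell genes were not higher, with means of 17.8 and 6.44 for PAX7, 38.3 and 37.8 for MYF5 and 8.69 and 5.37 for CALCR. The sums of 3 endothelial genes were 7282 to 7551 and 7841 to 9093, with VWF apart, at 3100 to 3394 and 3966 to 4645, and 0 called. The leukocyte and smooth-muscle lists (4 genes each) overlapped between the breeds and held 0 called genes, and of 3 blood genes HBM and SLC4A1 were at or under 3 counts in each library. In whole muscle, fewer cells of a type and less RNA per cell cannot be told apart, and the part of these lists in the values of the splicing genes was not tested.

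Levels of different genes were compared as RPKM, the count scaled by the length of the gene model and the library total. The hnRNP genes summed to 426 ± 68.1 RPKM in QHMM (mean ± SD, n = 3) and 535 ± 102 in STH, and the RBM genes to 412 ± 31.3 and 582 ± 138. The sums of the SF3 genes were 223 ± 13.4 and 259.6 ± 28.6 and those of the SR genes 145 ± 51.6 and 159 ± 45.9. The MBNL genes summed to 27.7 ± 9.88 and 36.5 ± 11.7, the RBFOX genes to 24.1 ± 3.94 and 23.1 ± 6.01, and the CELF genes to 21.4 ± 2.84 and 25.1 ± 3.04. These sums are over families of different size, from 3 listed RBFOX genes to 35 RBM genes.

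Among the SR proteins, SRSF3, the smallest of them, was the highest per length, with 83.2 ± 38.3 RPKM in the QHMM animals (mean ± SD, n = 3) and 75.6 ± 15.4 in the STH animals (n = 3). It took 43.5% to 62.8% of the summed RPKM of the family in every library. Its gene model is only 495 bases long, and by normalized counts it was close to SRSF1, whose model has 5072 bases. SRSF3 had 799, 419 and 410.0 normalized counts in replicates 1, 2 and 3 of QHMM, an order kept for all values per animal, and 448, 488 and 431 in the STH animals, so that QHMM replicate 1 stood alone and the other 5 animals were alike. Its log2FC of -0.25 (SE 0.28, FDR = 0.666) turned to 0.11 without that library.

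SRSF7, which also takes part in mRNA export, had 20.04 ± 6.27 RPKM in QHMM and 27.1 ± 10.9 in the STH animals. Its normalized counts were 403, 262 and 269 for QHMM and 342, 521 and 286 for STH. SRSF9 had 11.7 ± 1.33 and 11.7 ± 3.91 RPKM, from 133, 142 and 104 normalized counts for QHMM and 111, 141 and 90.04 for STH, with a log2FC of -0.15 (SE 0.26). SRSF5 had the largest fold change of the family. Its normalized counts were 165, 97.6 and 209.5 in the QHMM animals and 289.9, 276 and 165 in the STH animals, and STH replicate 3 lay among the QHMM animals. The log2FC of 0.63 (SE 0.32) had an FDR of 0.318. SRSF1, the founding SR protein and a regulator of many constitutive and alternative exons, had a log2FC of 0.40 (SE 0.23, FDR = 0.364), and its breeds overlapped. In none of the 8 tested SR genes were the breeds apart, where 13.0% of all tested genes were apart with STH higher and 11.7% with STH lower. SRSF12 was not tested, with 16 reads over the 6 libraries.

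**Figure D3:**
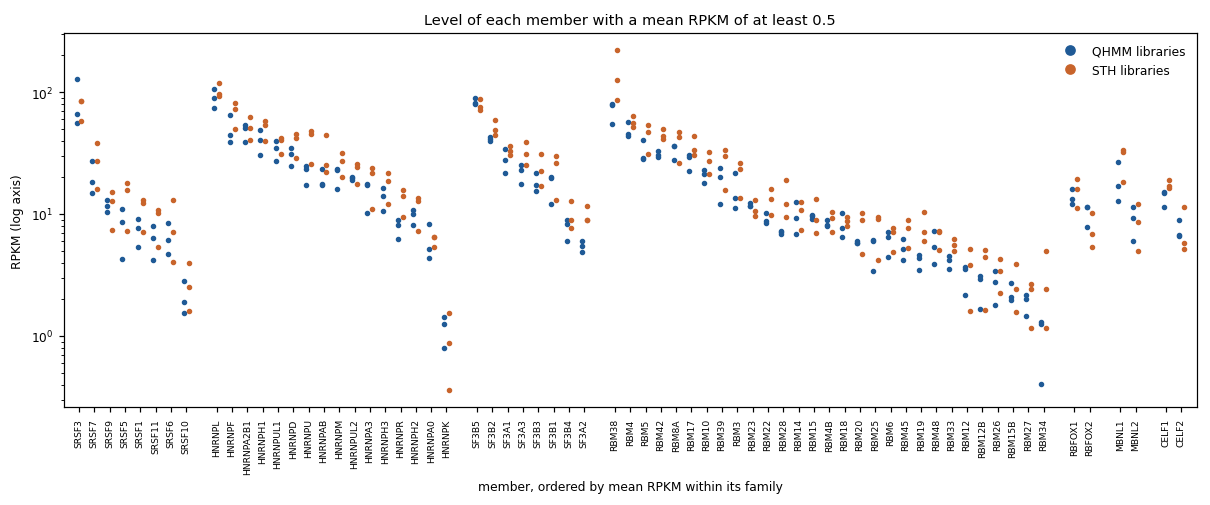
RPKM of each member with a mean of at least 0.5 is plotted on a log axis for the 3 QHMM libraries (blue) and the 3 STH libraries (orange), ordered by mean within each family. RBM38, HNRNPL, SRSF3 and SF3B5 lead their families, and HNRNPK is the lowest hnRNP.

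All 16 hnRNP genes were tested, and their median log2FC was 0.19. HNRNPL, which binds CA-rich elements, was the highest per length with 89.7 ± 15.8 RPKM in QHMM and 103 ± 14.0 in the STH animals, followed by HNRNPF, a binder of G-rich runs, with 49.3 ± 13.6 and 67.9 ± 16.2. The normalized counts of HNRNPL were 2846, 2372 and 2363 for QHMM and 2701, 2293 and 3080.2 for STH, and those of HNRNPF 1999, 1629 and 1179.6 for QHMM and 1883, 2315 and 1837 for STH. The breeds overlapped in both, and the log2FCs were 0.09 (SE 0.23) and 0.33 (SE 0.25). HNRNPA2B1, which acts in splicing and RNA transport and has been described as an m6A reader, varied little. It had 2393, 2167 and 2466 normalized counts in QHMM and 2462, 2190.2 and 2265 in the STH animals, and its log2FC of -0.02 (0.09 on RPKM) had a 95% interval from -0.48 to 0.44.

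The lowest FDR of any member was that of HNRNPU, a large nuclear matrix protein that binds RNA and chromatin. Its normalized counts were 989, 819.9 and 919 in the QHMM animals and 1517, 1748 and 1199 in the STH animals, so the lowest STH animal was above the highest QHMM animal. The log2FC was 0.71 (SE 0.22), and the FDR of 0.111 was not past the threshold. HNRNPU took 5.0% to 5.3% of the summed RPKM of the family among QHMM animals and 6.1% to 8.1% among STH animals.

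HNRNPR, which is close in sequence to SYNCRIP, had 315, 260.2 and 280.0 normalized counts in QHMM and 467, 454 and 392 in the STH animals, also without overlap. Its log2FC was 0.62 (SE 0.20, FDR = 0.127). HNRNPD (AUF1), known for AU-rich mRNA decay, had 642, 606 and 699 in the QHMM animals and 727, 859.7 and 700.3 in the STH animals, so that its breeds were apart by about 1 count. HNRNPM, which binds GU-rich motifs, had 712, 578 and 694 in the QHMM animals and 817, 760.1 and 725 in the STH animals. The log2FCs of these 2 genes were 0.23 (SE 0.20) and 0.21 (SE 0.20). Of the 12 hnRNPs whose breeds overlapped, HNRNPAB had the highest log2FC, 0.52 (SE 0.27, FDR = 0.320), with STH replicate 2 at 934 normalized counts and the other 5 libraries between 389 and 596.

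HNRNPK is an abundant poly(C)-binding protein in most tissues, but the gene listed under that symbol had only 46.1, 34.8 and 51.4 normalized counts in the QHMM animals and 48.3, 29.7 and 15.6 in the STH animals. Its log2FC was -0.48 (SE 0.42, FDR = 0.577), with STH replicate 3 the lowest library. Another 9 loci of the gene table resemble HNRNPK and together held 199 to 348 reads per library. Only reads with a unique position were counted, so reads of near-identical copies may be split or lost, and the level of HNRNPK is uncertain.

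SF3A and SF3B subunits work in fixed complexes. Of the 8 genes, 7 (87.5%) had a log2FC above 0, with 80.9% of all tested members and 51.8% of all tested genes, and the median was 0.23. SF3B5, the smallest, was the highest per length with 83.5 ± 5.04 RPKM in QHMM and 77.6 ± 8.49 in the STH animals, from a gene model of 610 bases. SF3B2 followed with 41.1 ± 1.73 and 51.0 ± 7.53, and SF3A1, whose product bridges SF3A to the rest of the particle, with 27.8 ± 6.06 and 33.0 ± 2.94. SF3B2 had 1292, 1586 and 1207 normalized counts for QHMM and 1291, 1701 and 1659.6 for STH, and SF3A1 had 1219, 1182 and 769.6 for QHMM and 923, 1193 and 1387 for STH, each with overlap. SF3B1, the subunit that clasps the branch-point helix, had 17.4 ± 4.59 and 23.0 ± 8.79, with a log2FC of 0.26 (SE 0.26).

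SF3A2 was the single subunit whose breeds were apart (12.5% of the 8, with 13.0% of all tested genes higher in STH). It had 124, 121 and 111 normalized counts in QHMM and 156, 221 and 221 in the STH animals. The QHMM animals were close together, and STH replicate 1 was the nearest of the STH animals to them. The log2FC was 0.75 (SE 0.24, FDR = 0.120). Its partner SF3A3 had 544, 912 and 697 in the QHMM animals and 802, 1095 and 923 in the STH animals, with overlap, and a log2FC of 0.39 (SE 0.24). SF3B5 was the only subunit with a value below 0, at -0.19 (SE 0.24). Its normalized counts were 692, 739 and 615 for QHMM and 462, 534 and 799 for STH, where STH replicates 1 and 2 lay below all QHMM libraries and STH replicate 3 above them.

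**Figure D4:**
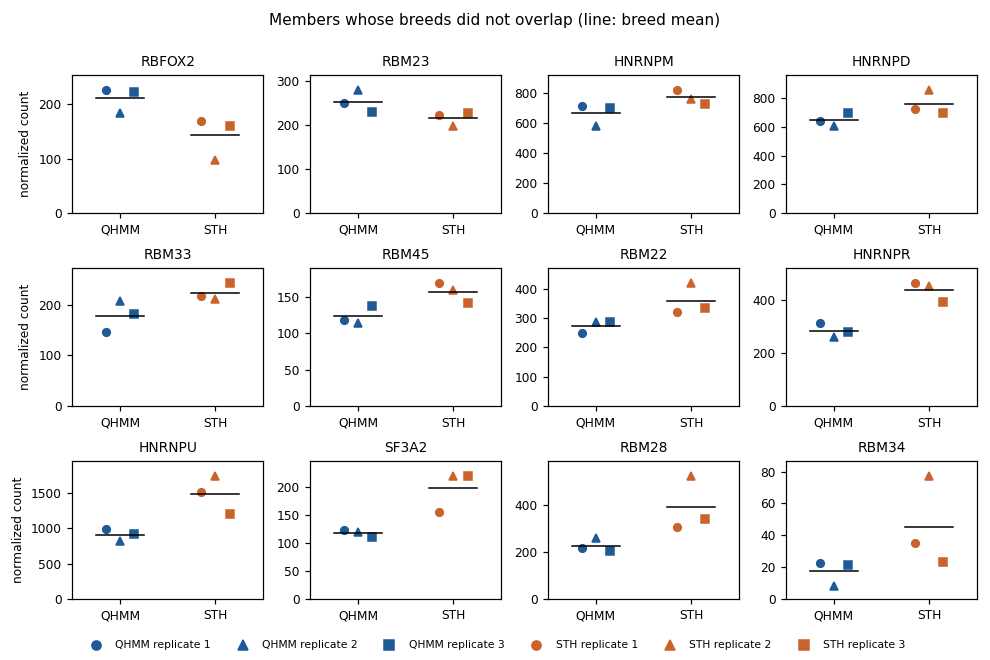
Normalized counts of the 12 tested members whose breeds did not overlap are shown per library, with symbols for the replicates, a line at each breed mean and axes that start at 0. RBFOX2 and RBM23 lay lower in STH, the other 10 lay higher, and none had an FDR below 0.05.

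The 35 RBM genes are a mixed group named for a shared RNA recognition motif, and 30 of them were tested. They were divided by role after their values had been seen. The median log2FC was 0.29 in the 14 tested genes linked to splicing. In the 3 genes of the nucleolus it was 0.80, and in the 13 with other or less certain roles 0.08. RBM38, RBM4 and RBM5 were the highest per length. RBM38, which binds and stabilizes CDKN1A mRNA and takes part in splicing during muscle differentiation, had 70.8 ± 13.6 RPKM in QHMM and 143 ± 68.5 in the STH animals, from a gene model of 518 bases. Its normalized counts were 362, 619 and 505 in the QHMM animals and 475, 1321 and 982 in the STH animals. STH replicate 1 was below 2 of the QHMM animals, and the other STH animals were above all 3. The log2FC was 0.90 (SE 0.35, FDR = 0.188). Without STH replicate 1 it was 1.20 and RBM38 was called, the one call of a member in any setting that was run. On RPKM its 2 breeds did not overlap.

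RBM4, a regulator of exons in muscle and neuronal differentiation, had 48.4 ± 6.96 RPKM in QHMM and 57.3 ± 6.22 in the STH animals. RBM5, which governs exons of apoptosis genes, had 32.5 ± 6.83 and 44.0 ± 11.8. Normalized counts of RBM4 were 1124, 1073 and 852 for QHMM and 947, 1172 and 1226 for STH, and those of RBM5 were 1152, 1337 and 1582 for QHMM and 1593, 1972 and 1462 for STH. The breeds overlapped in both. Their log2FCs were 0.13 (SE 0.22) and 0.30 (SE 0.23).

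RBM20 represses titin exons in heart and skeletal muscle. It had 268, 317 and 272 normalized counts in QHMM and 183, 378 and 558 in the STH animals, so the STH animals reached both below and above the QHMM animals. The range of 1.60 on the log2 scale within STH was one of the 3 widest within a breed among the tested members. Its log2FC of 0.38 (SE 0.34) became -0.02 without STH replicate 3. The other members with the widest ranges were RBM34, with 1.71 in the STH animals, and HNRNPK, with 1.60 in the STH animals.

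The 3 nucleolar genes have roles in ribosome assembly rather than splicing. RBM28 had 216, 260.2 and 202 normalized counts in QHMM and 305, 526 and 340.1 in the STH animals. Its log2FC was 0.79 (SE 0.26, FDR = 0.122), and the breeds did not overlap. RBM19 had 191, 239 and 150.1 in the QHMM animals and 220.3, 419 and 371 in the STH animals, and here STH replicate 1 lay within the QHMM range. The log2FC was 0.80 (SE 0.29, FDR = 0.162). RBM34 was the least abundant, with 22.1, 8.13 and 21.2 in the QHMM animals and 35.2, 77.4 and 23.3 in the STH animals. Its log2FC of 1.38 was the highest of any member, but the SE was 0.53 and the FDR 0.184, and the closest animals of the 2 breeds differed by about 1 count. STH replicate 2 was the highest library in all 3 genes.

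Of the other RBM genes whose breeds were apart, RBM22, a spliceosome component that contacts the catalytic RNA core, had 249.8, 286 and 287 normalized counts in QHMM and 319, 421 and 333 in the STH animals. Its log2FC was 0.38 (SE 0.21, FDR = 0.356). RBM33 had 147, 207 and 182 in the QHMM animals and 217, 212 and 243 in the STH animals, with 0.33 (SE 0.23). RBM45 had 118, 114 and 138 in the QHMM animals and 169.5, 159 and 142 in the STH animals, with 0.35 (SE 0.23). RBM23 was the one RBM gene with all STH libraries lower, at 248, 279 and 228 in the QHMM animals and 222, 196 and 227 in the STH animals, with a log2FC of -0.23 (SE 0.21). In RBM23, RBM33 and RBM45 the nearest animals of the 2 breeds almost met. The m6A writer subunits RBM15 and RBM15B had log2FCs of -0.11 (SE 0.24) and 0.06 (SE 0.31).

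Each of the 3 families best known for muscle splicing was expressed mainly through 2 paralogs. RBFOX1 and RBFOX2 bind the same GCAUG motif. RBFOX2 had the lowest log2FC of any member. Its normalized counts were 227, 185 and 224 in the QHMM animals and 170.3, 97.5 and 161 in the STH animals, and no STH animal reached the lowest QHMM animal. The log2FC was -0.56 (SE 0.27), with a 95% interval from -1.15 to 0.02 and an FDR of 0.279, and on RPKM the breeds overlapped. RBFOX1 had 182, 195 and 217 in the QHMM animals and 224, 201 and 181 in the STH animals, with a log2FC of 0.03 (SE 0.22).

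MBNL1, the main muscleblind protein of muscle, had 1228, 1096 and 1914 normalized counts in QHMM and 1978, 2227 and 1578 in the STH animals. QHMM replicate 3 lay among the STH animals, and the log2FC was 0.45 (SE 0.27, FDR = 0.395). MBNL2 had 477, 368 and 585 in the QHMM animals and 379, 576 and 303 in the STH animals, with -0.19 (SE 0.28, FDR = 0.767). CELF1, which acts against MBNL proteins on many exons, had 446, 406 and 449 in the QHMM animals and 418, 525 and 604 in the STH animals, with 0.25 (SE 0.21). CELF2 had 214, 189 and 159 in the QHMM animals and 233, 126 and 147 in the STH animals, with -0.15 (SE 0.28).

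Ratios of 2 paralogs within a library do not depend on how the libraries are scaled. The ratio of RBFOX1 to RBFOX2 RPKM was 1.15, 1.52 and 1.39 in the QHMM animals and 1.90, 2.97 and 1.62 in the STH animals. That of MBNL1 to MBNL2 was 1.83, 2.11 and 2.32 in the QHMM animals and 3.70, 2.75 and 3.69 in the STH animals. Both ratios were higher in each STH animal than in any QHMM animal, by a mean of 0.63 and 0.69 on the log2 scale. The exact permutation test (two-sided) gave p = 0.1 for each, the smallest that 3 animals against 3 allow, and 0.15 after Benjamini-Hochberg adjustment over the 3 ratios. For CELF1 to CELF2 the ratio was 1.66, 1.72 and 2.26 in the QHMM animals and 1.44, 3.32 and 3.29 in the STH animals, where STH replicate 1 was the lowest of all and the exact p was 0.4. These ratios were chosen after the counts had been seen.

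**Figure D5:**
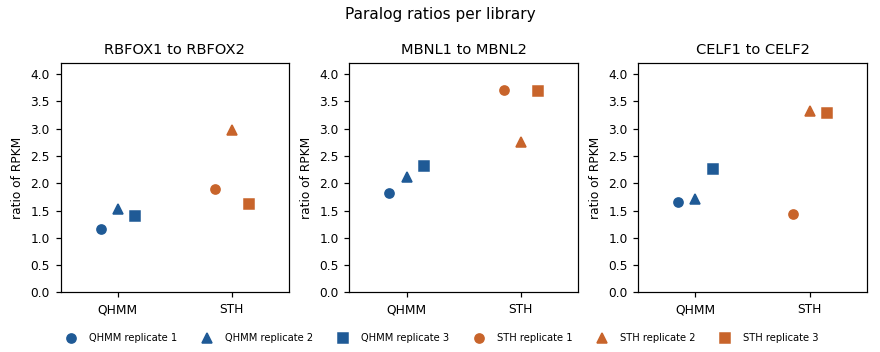
The ratio of RPKM of 2 paralogs is plotted for each library, with QHMM in blue, STH in orange and symbols for the replicates. The 3 STH values lie above the 3 QHMM values for RBFOX1 to RBFOX2 and for MBNL1 to MBNL2, and the breeds overlap for CELF1 to CELF2.

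The 12 members that were not tested had few or no reads. CELF3, CELF5, CELF6, RBM44 and RBM46 had 0 reads in all libraries, which allows up to 3 reads in each. CELF4 had 25 reads over the 6 libraries, RBFOX3 7 and MBNL3 1. RBM41, RBM47 and RBM11 had 51, 18 and 11. RBFOX3 and CELF3 to CELF6 are mostly neuronal genes, and of the 4 neural markers NEFL and ELAVL4 were also at or under 3 counts in each library, while MAP2 had 12 to 36 counts and SYN1 14 to 39.

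The reference annotation (ARS-UI_Ramb_v3.0) holds 7 more genes of these families that the gene table lists under another name, 5 of them by gene ID and 2 by an older symbol. All 7 were tested and 0 were called. RBM24, listed as LOC101112521, promotes muscle exons in heart and skeletal muscle. It had 825, 779 and 830.0 normalized counts in QHMM and 875, 1677 and 1311 in the STH animals, with a log2FC of 0.67 (SE 0.25, FDR = 0.185). The QHMM animals were close together and STH replicate 1 was close to them. HNRNPA1, listed as LOC101120819, came nearest to the threshold, with 111, 107 and 123 in the QHMM animals and 184, 243 and 209 in the STH animals and a log2FC of 0.90 (SE 0.23, FDR = 0.0605). Another 18 loci resemble HNRNPA1 and together held 196 to 758 reads per library, so the level of HNRNPA1 is uncertain, like that of HNRNPK. HNRNPDL (HNRPDL) had 0.56 (SE 0.22), HNRNPLL (HNRPLL) 0.67 (SE 0.28), SF3B6 (LOC101105990) 0.41 (SE 0.21) and SRSF4 (LOC101109078) 0.31 (SE 0.21). By normalized counts the STH libraries lay above the QHMM libraries in these 6 of the 7 genes, against 13.0% of all tested genes. HNRNPC (LOC101109972), at -0.17 (SE 0.21), overlapped. This separation also depended on the scaling. On RPKM only RBM24 and HNRNPA1 stayed apart, with 15.4% of all genes higher in STH on that scale, and the breeds overlapped in HNRNPDL, HNRNPLL, SF3B6, SRSF4 and HNRNPC.

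The rest of the splicing machinery was examined through a list of 124 kinases, cofactors and spliceosome components, of which 116 were found and 112 tested. None were called by edgeR, with 11 (9.82%, with 9.43% of all tested genes) at an unadjusted p below 0.05 and higher in STH and 0 lower (with 9.72%), and by DESeq2 and limma-trend 0 were called as well. The median log2FC was 0.20, 90 of the 112 values (80.4%, with 51.8% of all tested genes) were above 0, and the breeds were apart with STH higher in 21 (18.8%, with 13.0%) and lower in 1 (0.893%, with 11.7%). The highest group median was 0.45, in the 18 tested genes of the PRPF19 complex and the catalytic steps. Among these, XAB2 had 555, 638 and 432 normalized counts in QHMM and 708, 1238 and 903 in the STH animals, with a log2FC of 0.81 (SE 0.26, FDR = 0.116). PRPF19, the core ubiquitin ligase of that complex, was the 1 gene with all STH libraries lower, at -0.33 (SE 0.22).

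SR protein kinases set where SR proteins reside and when they act. SRPK3, the muscle member, had 1021, 828 and 913 normalized counts in QHMM and 828, 445 and 1306 in the STH animals, with a log2FC of -0.10 (SE 0.33). The STH animals spanned more than the whole QHMM range. CLK1 had 417, 266 and 463 in the QHMM animals and 559, 734 and 451 in the STH animals, with 0.60 (SE 0.27, FDR = 0.253). TRA2A and TRA2B, which bind GAA-rich enhancers, had -0.02 (SE 0.32) and 0.24 (SE 0.21). PTBP1, a repressor of muscle and neuronal exons, had -0.02 (SE 0.24). On RPKM, TRA2A and PTBP1 were at 0.08 and 0.12. QKI, a regulator of muscle exons, was as high as 55.9 ± 8.85 RPKM in QHMM and 64.3 ± 7.24 in the STH animals, with 0.09 (SE 0.19).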

How the data were processed

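The authors filtered the Ion Proton reads, mapped them to the sheep genome (Oar 3.1), kept unique mapped reads and deposited a count per gene without normalization. The aligner, the counting program, its use of strand and the annotation release are not given in the sources used here. The deposited RPKM values are the counts divided by gene length and library total, without TMM, and 25 gene names could not be joined between the tables, none of them a member. Animals of a breed were taken as replicates.

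Counts were tested in R 4.3.3 with edgeR 4.0.16 (TMM, filterByExpr, glmQLFit and glmQLFTest, breed as the only term, Benjamini-Hochberg adjustment over all tested genes). The study's program, EBSeq, was not installed. Intervals and SEs are from that fit. Alternatives used DESeq2 1.42.0 and limma 3.58.1, and the methods were tested on simulated counts. Gene names were matched to the RefSeq annotation by symbol (78 of 80 members) or gene ID, and no sequences were used.

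Any member could be named. Values per library are given for members whose breeds did not overlap, the 3 most abundant of each family (where tested), the 3 with the widest range within a breed and 9 genes known for striated muscle. The 6 other splicing factors and 7 genes filed under another name have values per library or only a log2FC. SRSF5, SRSF1, HNRNPAB, SF3B1, SF3A3, RBM19, RBM15, RBM15B, XAB2 and PRPF19 were added after their values had been seen. The members and lists were chosen with earlier results of these data known.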

Additional observations from a re-analysis of the deposited data

How the results depend on the processing

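In 13 alternatives with all 6 libraries, 0 members and 0 of the other splicing factors were called. With 1 library left out, 0 to 1 members and 0 other factors were called, and the median log2FC of the members was 0.12 to 0.27. It was 0.18 to 0.33 in the other alternatives, of which limma-trend on RPKM also moved the median of all genes to 0.12 or 0.14 with the filter on low values. The number of genes called over the whole table moved from 432 to 973 with DESeq2, 806 with no filter on low counts, 41 at an FDR of 0.01 and 78 with unfiltered log2(RPKM + 1), and was 131 to 535 with 1 library left out. Leaving out both libraries that lay apart on the second component, an alternative chosen after seeing the data, gave 11. The cause of these differences was not tested, and the fits with libraries left out also had fewer samples.

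Same-numbered animals of the 2 breeds deviated together with correlations of 0.23, -0.04 and -0.13, so the numbers were not taken as pairs, and QHMM replicate 2 was closest to STH replicate 3 (0.29). With the replicate number as a block, 0 members and 0 other factors were called, the median of the members was 0.22 and 457 genes were called in all. With the gene-length offset added, the median was 0.21 and 456 genes were called.

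Of 37 named genes, 25 kept the sign of their log2FC in every alternative and 12 did not, and the cause was not tested. With limma-trend on log2(RPKM + 1), filtered or not, HNRNPA2B1 was at 0.0909, PTBP1 at 0.120 and TRA2A at 0.0835, and with log2(RPKM + 0.1) they were at 0.0925, 0.127 and 0.0896. TRA2A was at 0.0206 with the gene-length offset and at 0.00063 with the offset and the block. PTBP1 was at 0.0108 with the block and at 0.00655 with both. Without both libraries that lay apart, HNRNPL was at -0.0695, SRSF9 at 0.0766 and TRA2A at 0.0560. With 1 library left out, the log2FC ran from -0.0872 to 0.0182 for HNRNPA2B1, from -0.0148 to 0.177 for HNRNPL, from -0.500 to 0.00281 for MBNL2, from -0.194 to 0.168 for PTBP1, from -0.0628 to 0.110 for RBFOX1, from -0.0225 to 0.700 for RBM20, from -0.0384 to 0.273 for SF3A1, from -0.529 to 0.197 for SRPK3, from -0.418 to 0.114 for SRSF3, from -0.00679 to 0.503 for SRSF7 and from -0.242 to 0.207 for TRA2A. Every value with the other sign was smaller than its SE, and none was called.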

Other observations

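Besides the named genes, 68 loci of the gene table resemble a gene of these families, member or not, by their description or best protein match. Many of them are listed as pseudogenes. Of these, 52 had reads and 21 were tested. A log2FC above 0 was found in 17 of the 21 (81.0%, with 51.8% of all tested genes), with a median of 0.39. The breeds were apart with STH higher in 3 (14.3%, with 13.0% of all tested genes) and lower in 0 (with 11.7%). Only 1 was called, where 3.45% of all tested genes were. The 18 HNRNPA1-like loci together held 372, 196 and 316 reads in the 3 QHMM animals and 758, 643 and 388 in the STH animals. All 6 that were tested had a log2FC above 0, between 0.59 and 1.56. LOC101104501 was called, with 32.8, 25.6 and 25.2 normalized counts in the QHMM animals and 102, 92.2 and 53.4 in the STH animals (log2FC 1.56, SE 0.34, edgeR FDR = 0.0359). LOC101102839, at 1.51 (SE 0.39, FDR = 0.0643), and LOC101114597, at 0.75 (SE 0.23, FDR = 0.111), also lay higher in every STH library. Which of these loci, or HNRNPA1 itself, a read came from cannot be told from the counts.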
